A study of Rattus norvegicus with 288 samples.

Results

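Sorafenib, an oral kinase inhibitor, was set against its own oral vehicle F68/PG/PEG400 in the hearts of rats killed 1 h after dosing. Members were chosen by their labels, as the heart arrays at 1 h whose second agent was sorafenib or F68/PG/PEG400. The 4 groups held 16 of the 96 heart arrays and of the 288 arrays in all. The array of rat 6M68 was left out for a reason given below, so that 15 arrays were compared, 7 from sorafenib rats and 8 from F68/PG/PEG400 rats.

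The rats were male Sprague-Dawley animals of 7 to 8 weeks, each with an indwelling femoral vein cannula. Each received an intravenous agent and, 30 minutes later, an oral one. The groups were TEM_vehicle followed by sorafenib at 25 mg/kg (4 rats), temsirolimus at 0.3 mg/kg followed by the same dose of sorafenib (4 rats, 3 used), TEM_vehicle followed by F68/PG/PEG400 (4 rats), and temsirolimus at 0.3 mg/kg followed by F68/PG/PEG400 (4 rats). The oral vehicle, a mixture of Pluronic F68, propylene glycol and polyethylene glycol, also carried the sorafenib. Temsirolimus blocks the kinase mTOR, and it was present in both a sorafenib group and the F68/PG/PEG400 group set against it. The tissue was the apex with both ventricles, 1 rat gave 1 array, and the signals, summarised by RMA, are on a log2 scale, so that a difference of 1 is a factor of 2. The drug was given once at 1 dose, so the values hold for that dose in young male rats.

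Sorafenib inhibits RAF kinases and several receptor tyrosine kinases, among them the receptors for VEGF and PDGF. In heart muscle, VEGF receptors sit on the endothelial cells of the vessels, and their signal passes through RAF, MEK and ERK to a set of early transcripts. Those transcripts include growth factor responsive transcription factors and inhibitors, such as the Sprouty proteins, that feed back on the same pathway. High blood pressure and loss of cardiac function are known adverse effects of drugs that block VEGF receptors.

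The mean of 13 cardiomyocyte markers lay between 14.17 and 14.39 in the 7 sorafenib hearts and between 14.32 and 14.42 in the 8 F68/PG/PEG400 hearts. In rat 6M68, of the temsirolimus and sorafenib group, it was 13.98, while the mean of 16 hepatocyte markers was 14.16, against 6.02 to 6.67 in the other sorafenib hearts and 5.95 to 7.58 in the F68/PG/PEG400 hearts. The mean distance of that array to its replicates over all probe sets was 154.5, whereas the other 3 arrays of the group lay 37.8 to 39.8 apart. The array of rat 6M68 was left out for its hepatocyte transcripts, which mark liver RNA. The array of rat 8M92, of the TEM_vehicle and sorafenib group, lay 78.9 from its replicates, against 39.7 to 54.9 for the other arrays of the 3 remaining groups, and it had the lowest cardiomyocyte level of the 15. It was kept, and counts of list members without it are given where they differ for a list described below.

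**Figure D1:**
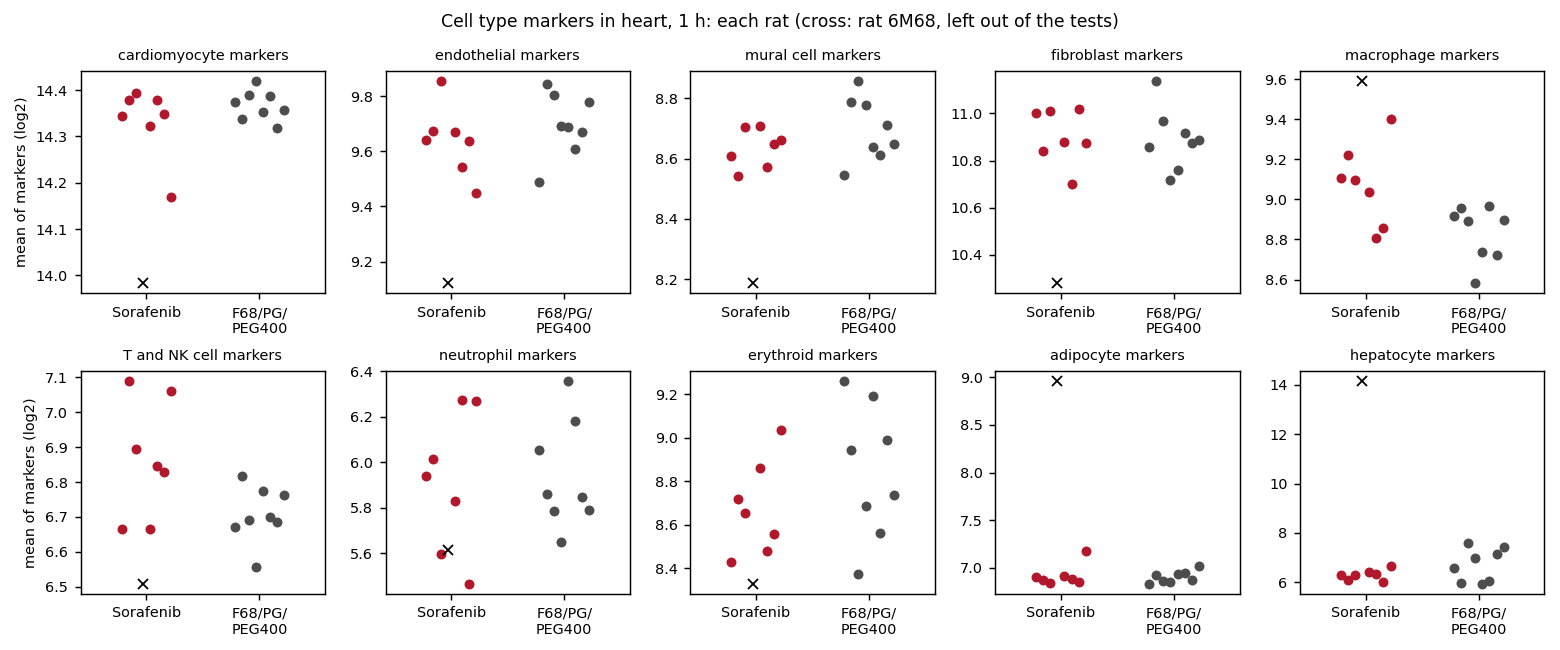
Each point is 1 heart at 1 h, with sorafenib rats on the left and F68/PG/PEG400 rats on the right of each panel, and the vertical axis gives the mean log2 RMA value of a list of cell type markers. The cross is rat 6M68, whose hepatocyte markers averaged 14.16; the macrophage markers of the sorafenib hearts (8.81 to 9.40) overlapped those of the F68/PG/PEG400 hearts (8.58 to 8.97).

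No gene passed the test of sorafenib against F68/PG/PEG400 at 1 h. Limma, with blocks for the first agent and the array set (the 2 rats with the lower and the 2 with the higher numbers of a group), called 0 of 14218 genes (0%) at an adjusted p under 0.05. The smallest adjusted p was 0.0713, and 4 genes were under 0.1. Without adjustment 1143 genes had a p under 0.05, of which 579 (4.07%) were higher and 564 (3.97%) lower in sorafenib hearts. Sorafenib and F68/PG/PEG400 hearts did not overlap at all for 10 genes (0.0703%), 5 higher and 5 lower. Other fits called 0 to 9 genes. The fit that took its spread from the 31 heart arrays at 1 h left without rat 6M68 called 9 (0.0633%). Among its arrays the mean of hepatocyte markers reached 9.48 in sunitinib hearts and 8.62 in sterile water hearts. The genes called were Hlx, Spry4, Prdm1 and Rgs16, which fell, and Klrd1, Lrif1, Abracl, Khdrbs3 and Mtx2, which rose. Of those not described below, Prdm1 is a transcriptional repressor, Khdrbs3 an RNA-binding protein and Mtx2 a protein of the outer mitochondrial membrane. Their log2 changes in that fit were -0.47 ± 0.09, 0.29 ± 0.06 and 0.27 ± 0.05, and that of Abracl was 0.41 ± 0.08.

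The 10 genes with the smallest p were named by rule, and none of them passed. They were Hlx, Rgs16, Bcl6b, Spry4, Ace, Fgf1 and Ppm1l, which were lower in sorafenib hearts, and Klrd1, Lrif1 and Mageh1, which were higher. All 10 had the same direction in the rats given TEM_vehicle first and in the rats given temsirolimus first. The genes were chosen on these same rats together, so this agreement is only a description. The groups did not overlap for Hlx, Rgs16 and Ppm1l.

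**Figure D2:**
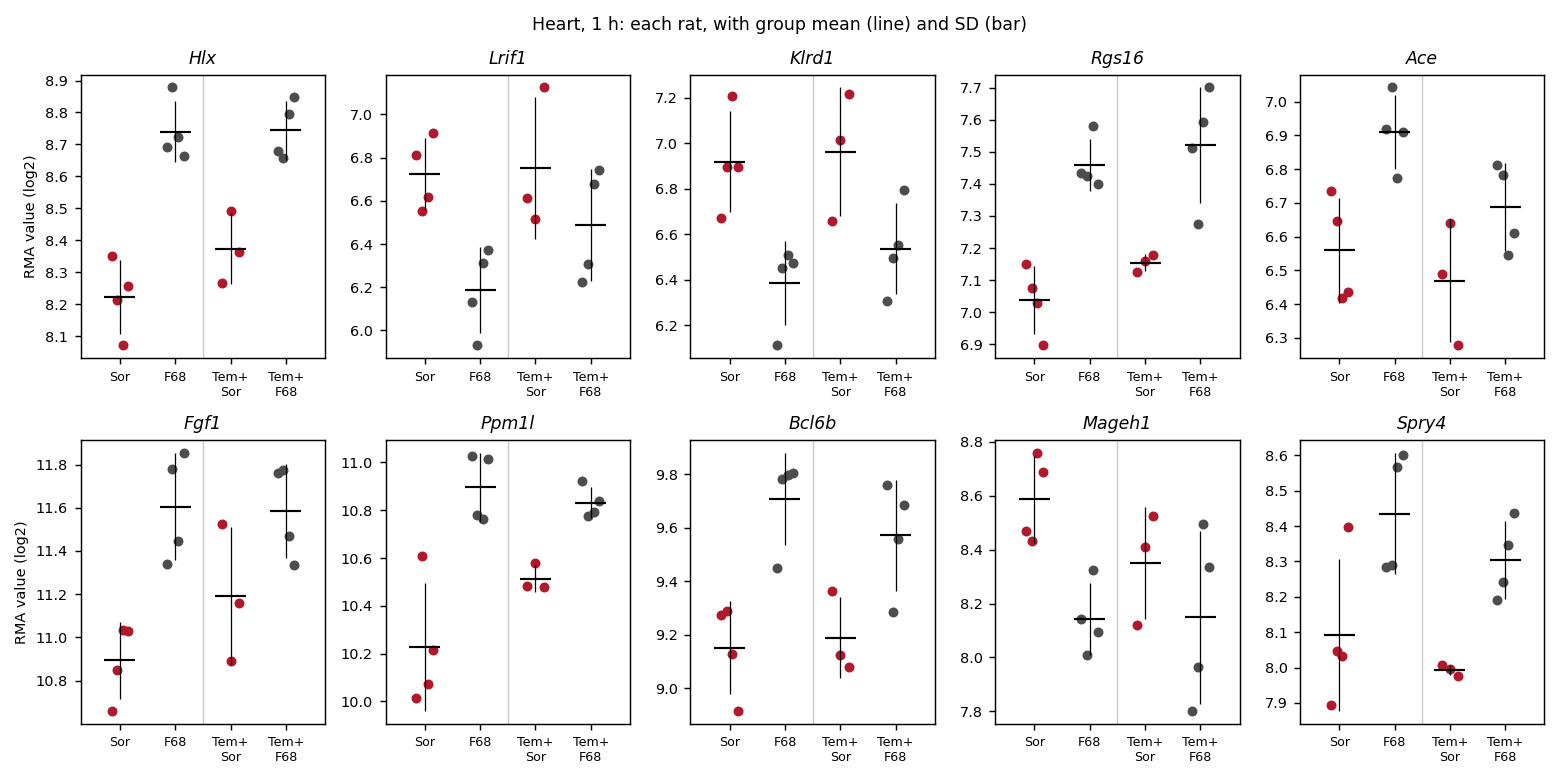
Log2 RMA values of the 10 genes in each heart at 1 h, with lines for group means and bars for SD. From left to right the groups are sorafenib after TEM_vehicle (Sor, 4 rats), F68/PG/PEG400 after TEM_vehicle (F68, 4), sorafenib after temsirolimus (Tem+Sor, 3) and F68/PG/PEG400 after temsirolimus (Tem+F68, 4); every red point (sorafenib) lies below every grey one (F68/PG/PEG400) for Hlx, Rgs16 and Ppm1l.

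Hlx, a homeobox transcription factor found in endothelial cells among others, had the smallest p. Its log2 values in sorafenib hearts were 8.35, 8.21, 8.07 and 8.26 after TEM_vehicle and 8.27, 8.49 and 8.36 after temsirolimus. In F68/PG/PEG400 hearts they were 8.69, 8.88, 8.72 and 8.67 after TEM_vehicle and 8.68, 8.66, 8.79 and 8.85 after temsirolimus. The highest sorafenib heart thus lay below the lowest F68/PG/PEG400 heart. The log2 change of Hlx was -0.44 ± 0.06 (SE; limma adjusted p = 0.0713), -0.52 ± 0.10 after TEM_vehicle and -0.36 ± 0.08 after temsirolimus. Hlx was the gene most often called in other fits, in 8 of 27. Among these fits was the one that kept the array of rat 6M68, where Hlx was at 8.19 (adjusted p = 0.0453). The hepatocyte markers of that array were at 14.16, so its Hlx value is not read as one of heart. In livers of the rats compared, Hlx spanned 7.79 to 8.11 with F68/PG/PEG400 and 7.90 to 8.16 with sorafenib.

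Hearts of rats that had another oral agent give a second view of Hlx at 1 h. The lowest, median and highest values were 8.26, 8.43 and 8.64 in 8 sunitinib hearts, and 8.67, 8.76 and 8.80 in 8 hearts of rats given sterile water, the vehicle of sunitinib. Sunitinib is another inhibitor of VEGF receptors and related kinases, given here at 5 mg/kg. The sunitinib change of Hlx was -0.29 ± 0.06 (limma adjusted p = 0.103), without overlap between the groups. All 16 hearts from rats with either oral vehicle lay above all 7 sorafenib hearts.

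Bcl6b, a zinc finger repressor enriched in endothelial cells, had values of 8.92, 9.13 and 9.36 (lowest, median and highest) in sorafenib hearts, against 9.29, 9.72 and 9.80 in F68/PG/PEG400 hearts. The groups overlapped narrowly, since only the lowest F68/PG/PEG400 heart lay within the range of the sorafenib hearts. The log2 change was -0.48 ± 0.09 (limma adjusted p = 0.225). All 4 probe sets of Bcl6b were lower in sorafenib hearts, with changes of -0.29 to -0.48.

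Rgs16, which switches off the alpha subunits of Gi and Gq proteins, had values of 6.90, 7.13 and 7.18 in sorafenib hearts and 7.27, 7.47 and 7.70 in F68/PG/PEG400 hearts. The groups did not overlap, and the log2 change was -0.38 ± 0.06 (limma adjusted p = 0.0941). In the array of rat 6M68 Rgs16 was at 8.99, above every other heart of the comparison, and with that array kept the change was -0.16 (adjusted p = 0.845). In livers Rgs16 spanned 7.65 to 11.7 in the other sorafenib rats and 8.05 to 10.5 in the F68/PG/PEG400 rats.

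Spry4, a Sprouty inhibitor of the ERK pathway that is itself transcribed when ERK is active, had values of 7.89, 8.01 and 8.40 in sorafenib hearts and 8.19, 8.32 and 8.60 in F68/PG/PEG400 hearts. The sorafenib heart of rat 8M92 lay within the F68/PG/PEG400 range and the other 6 lay below it. The log2 change was -0.32 ± 0.06 (limma adjusted p = 0.225), -0.34 ± 0.10 after TEM_vehicle and -0.30 ± 0.08 after temsirolimus. Sunitinib hearts had 7.81, 8.17 and 8.25, against 8.29, 8.50 and 8.64 in sterile water hearts. That fall of -0.36 ± 0.05 was the only call among 14218 genes for sunitinib at 1 h (0.00703%; limma adjusted p = 0.00216).

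Ace, the angiotensin-converting enzyme of vessel walls, had values of 6.28, 6.49 and 6.73 in sorafenib hearts and 6.55, 6.80 and 7.04 in F68/PG/PEG400 hearts, which overlapped. Its log2 change was -0.31 ± 0.05 (limma adjusted p = 0.124). A second and dimmer probe set of Ace gave -0.12 ± 0.10 (unadjusted p = 0.226 in a fit of all probe sets). In sunitinib hearts the change was 0.02 ± 0.07.

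Fgf1, a secreted growth factor, and Ppm1l, a membrane protein phosphatase, were also lower in the liver of the same sorafenib rats, where neither passed. Fgf1 had values of 10.66, 11.03 and 11.52 in sorafenib hearts and 11.34, 11.61 and 11.855 in F68/PG/PEG400 hearts, a log2 change of -0.59 ± 0.11 (limma adjusted p = 0.128). In the livers the values were 7.79, 7.95 and 8.45 in sorafenib rats and 8.10, 8.61 and 8.76 in F68/PG/PEG400 rats, a change of -0.51 ± 0.12 (adjusted p = 0.999). All 3 probe sets of Fgf1 were lower in sorafenib hearts, by up to -1.07. Hearts of sterile water rats spanned 10.6 to 12.0, which took in all 7 sorafenib hearts.

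Ppm1l behaved alike on its brightest probe set. It had 10.015, 10.48 and 10.61 in sorafenib hearts and 10.76, 10.82 and 11.03 in F68/PG/PEG400 hearts, without overlap, and a log2 change of -0.51 ± 0.09 (limma adjusted p = 0.128). The liver change in the same rats was -0.50 ± 0.13 (adjusted p = 0.999), and the difference between heart and liver changes was -0.01 ± 0.15. A second bright probe set of Ppm1l, with a mean of 10.25, gave 0.04 ± 0.08 in the heart and did not follow the first. Ppm1l ranged over 9.80 to 11.2 in sterile water hearts and 9.66 to 11.1 in sunitinib hearts.

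Of the 3 genes that were higher, Klrd1 codes for CD94, a receptor of natural killer cells. Its values were 6.66, 6.90 and 7.22 in sorafenib hearts and 6.11, 6.48 and 6.79 in F68/PG/PEG400 hearts, a log2 change of 0.51 ± 0.08 (limma adjusted p = 0.0713). Sterile water hearts had 6.32, 6.78 and 7.13, a range that overlapped most of the sorafenib hearts. With rat 6M68 kept the change was 0.38 (adjusted p = 0.757).

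Lrif1, a nuclear protein that binds heterochromatin factors, had values of 6.52, 6.62 and 7.13 in sorafenib hearts and 5.93, 6.31 and 6.74 in F68/PG/PEG400 hearts, a log2 change of 0.45 ± 0.07 (limma adjusted p = 0.0713). Mageh1, an X-linked member of the MAGE family, had 8.12, 8.47 and 8.76 in sorafenib hearts and 7.80, 8.12 and 8.50 in F68/PG/PEG400 hearts, a change of 0.37 ± 0.07 (adjusted p = 0.225). Both genes overlapped between the groups. With rat 6M68 kept the changes were 0.30 for Lrif1 (adjusted p = 0.758) and 0.28 for Mageh1 (adjusted p = 0.757).

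Promoters of the 10 genes were looked up in RefSeq (GRCr8), which held 8 of them. Windows ran from 250 bases before to 50 bases after the start of the gene, and each was searched on both strands. The motifs were the CRE (TGACGTCA), its shorter core (TGACG, which lies within the CRE), AP-1 (TGANTCA), the CArG box, FOXO (GTAAACA), ETS (CCGGAA), KLF/Sp1 (GGGCGG) and the E-box (CACGTG). They occurred in 1.83%, 21.2%, 7.33%, 1.64%, 3.78%, 15%, 33.1% and 6.42% of 33469 promoters. The rule took the 3 genes with the largest falls and the 3 with the largest rises, of which Fgf1, Ppm1l, Lrif1 and Mageh1 had a promoter in the table. All 4 held KLF/Sp1 letters, and Lrif1 also held ETS letters and the CRE core. Spry4 and Hlx were added after their values were seen, because both fell at other times or with sunitinib. Rgs16 also fell at other times. Like Ace, it held only KLF/Sp1 matches in its window, and its sequence is not printed. Spry4 held 1 ETS and 1 KLF/Sp1 match, and Hlx held no match in the window. The 250 bases before the start are printed 5′ to 3′ on the strand of the gene, with matches in capitals, for Hlx (chr13:98817265-98817514, minus strand), Spry4 (chr18:30702547-30702796, minus strand) and Lrif1 (chr2:196995443-196995692, plus strand).
Hlx: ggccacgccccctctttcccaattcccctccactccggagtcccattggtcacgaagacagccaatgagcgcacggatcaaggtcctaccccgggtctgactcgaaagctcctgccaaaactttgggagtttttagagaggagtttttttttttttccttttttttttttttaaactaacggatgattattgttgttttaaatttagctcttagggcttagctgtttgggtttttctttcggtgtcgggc
Spry4: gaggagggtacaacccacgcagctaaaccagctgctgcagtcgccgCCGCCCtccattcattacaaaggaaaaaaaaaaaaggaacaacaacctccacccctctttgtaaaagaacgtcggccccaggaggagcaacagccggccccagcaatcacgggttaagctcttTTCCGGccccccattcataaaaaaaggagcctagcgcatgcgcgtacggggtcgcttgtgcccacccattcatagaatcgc
Lrif1: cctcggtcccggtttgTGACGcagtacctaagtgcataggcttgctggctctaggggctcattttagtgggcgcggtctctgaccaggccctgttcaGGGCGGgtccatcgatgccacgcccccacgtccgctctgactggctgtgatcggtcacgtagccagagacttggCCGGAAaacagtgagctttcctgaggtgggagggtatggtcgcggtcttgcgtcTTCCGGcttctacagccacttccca
A match is only a description of the letters in the window.

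Hearts of other rats, killed 6 and 24 h after the same treatments, share no array with those at 1 h. At 6 h 438 genes (3.08%) were called in limma and at 24 h 573 (4.03%). Of the 10 genes, 4 had the direction of the 1 h change at 6 h and 6 had it at 24 h. The same 4, namely Hlx, Bcl6b, Rgs16 and Spry4, were called at both times and fell each time. None of the other 6 was called at either time.

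Hlx fell by 0.72 at 6 h (SE 0.06, limma adjusted p = 8.98e-06), with values of 8.08, 8.23 and 8.43 in sorafenib hearts and 8.80, 8.92 and 9.10 in F68/PG/PEG400 hearts. At 24 h it fell by 0.49 (SE 0.05, adjusted p = 7.48e-05), with 8.10, 8.27 and 8.45 in sorafenib hearts and 8.61, 8.77 and 8.96 in F68/PG/PEG400 hearts. The medians in sorafenib hearts were 8.27, 8.23 and 8.27 at 1, 6 and 24 h, while those in F68/PG/PEG400 hearts were 8.71, 8.92 and 8.77.

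Rgs16 fell by 0.95 at 6 h (SE 0.09, limma adjusted p = 3.18e-05) and by 0.57 at 24 h (SE 0.08, adjusted p = 0.000843). Bcl6b fell by 0.88 at 6 h (SE 0.09, adjusted p = 4.68e-05) and by 0.63 at 24 h (SE 0.09, adjusted p = 0.00100). Spry4 fell by 0.55 at 6 h (SE 0.08, adjusted p = 0.00137) and by 0.38 at 24 h (SE 0.06, adjusted p = 0.00151). Sorafenib and F68/PG/PEG400 hearts did not overlap for Rgs16 or Bcl6b at either time. For these 3 genes the 6 h change was the largest of the 3 times.

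Ace had the opposite sign later, with changes of 0.32 ± 0.10 at 6 h (limma adjusted p = 0.112) and 0.22 ± 0.08 at 24 h (adjusted p = 0.131), neither of which passed. Klrd1 was at -0.43 ± 0.21 at 6 h and -0.17 ± 0.12 at 24 h, also without passing (adjusted p = 0.299 and 0.514). Fgf1 and Ppm1l were within 0.15 of 0 at both times.

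**Figure D3:**
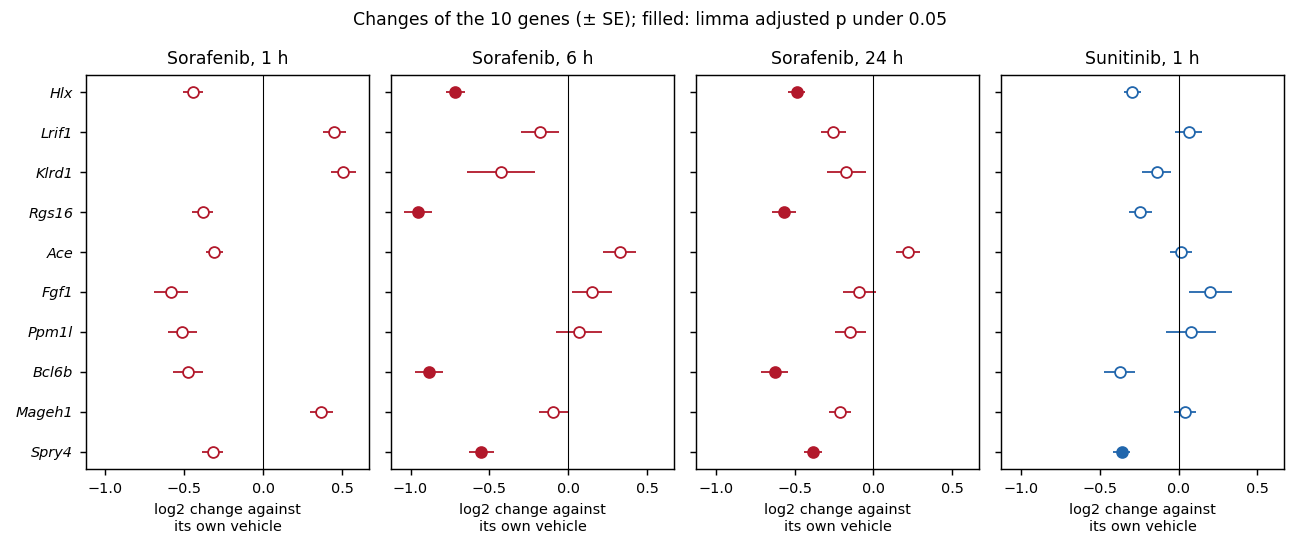
Log2 changes of the 10 genes with SE bars, for sorafenib against F68/PG/PEG400 at 1, 6 and 24 h (red) and sunitinib against sterile water at 1 h (blue). Filled points have a limma adjusted p under 0.05: none at 1 h of sorafenib, Hlx, Rgs16, Bcl6b and Spry4 at 6 and at 24 h, and Spry4 for sunitinib.

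Tested across all genes, the sorafenib change at 1 h differed from that at 6 h for 557 genes (3.92%), 321 with the higher value at 1 h and 236 with the lower. After renewed quantile normalisation the split was 293 higher and 353 lower at 1 h. Of the 10 genes named above, 6 passed this limma test. All 10 had an unadjusted p under 0.05 in it, as did 3149 genes in all. The 10 were chosen by their 1 h change, so these counts are only a description. None of the 4 genes with the smallest adjusted p passed at 1 h. Fcmr, an IgM receptor of lymphocytes, changed by 0.19 ± 0.09 at 1 h and fell by 0.86 at 6 h, a difference of 1.05 ± 0.11 (limma adjusted p = 1.04e-05). Fmo1, a flavin monooxygenase, had -0.12 ± 0.10 at 1 h and rose by 0.91 at 6 h, a difference of -1.03 ± 0.14 (adjusted p = 0.000422). Cyp4b1, a cytochrome P450, had -0.17 ± 0.11 at 1 h and rose by 0.81 at 6 h, a difference of -0.98 ± 0.14 (adjusted p = 0.000422). Fam13c had -0.19 ± 0.11 at 1 h and rose by 1.11 at 6 h, a difference of -1.30 ± 0.16 (adjusted p = 0.000107). Their sorafenib and F68/PG/PEG400 hearts did not overlap at 6 h and overlapped at 1 h. These 4 genes were chosen by the difference between the times, so this is only a description. The count of 557 genes and its split were sensitive to single rats. Leaving out 1 rat of every group in turn gave 11, 257 (219 higher and 38 lower at 1 h) and 455 genes (210 higher and 245 lower). A last run, which left out 1 rat of every group but that of temsirolimus and sorafenib at 1 h, where rat 6M68 was already out, gave 22.

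Temsirolimus given first was the second axis of the design. The sorafenib change differed between rats with and without temsirolimus for 1 gene (0.00703%), Fxyd3, a regulator of the sodium pump. After TEM_vehicle its values were 9.05, 9.19, 8.91 and 9.11 in sorafenib hearts and 8.53, 8.25, 8.07 and 7.98 in F68/PG/PEG400 hearts. After temsirolimus they were 8.37, 8.16 and 7.94 in sorafenib hearts and 8.88, 8.55, 8.65 and 8.73 in F68/PG/PEG400 hearts. The groups thus did not overlap in either case and lay in opposite order, with a difference of changes of -1.43 ± 0.16 (limma adjusted p = 0.00739). When 1 rat of every group was left out in turn, the adjusted p was 0.148 to 0.807 in 3 runs. It was 0.0385 in a last run that kept all 3 rats of the temsirolimus and sorafenib group, where rat 6M68 was already out. Hearts of rats given TEM_vehicle and sterile water, with no drug, spanned 8.01 to 9.30, a range that held all 4 sorafenib hearts and 3 of the 4 F68/PG/PEG400 hearts after TEM_vehicle. None of the 10 genes named above passed this test. Within the rats given TEM_vehicle 0 genes were called by limma (1846 had an unadjusted p under 0.05), and within those given temsirolimus 0 (899).

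The sorafenib change was also set against the sunitinib change at 1 h, each relative to its own oral vehicle, at 25 mg/kg of sorafenib and 5 mg/kg of sunitinib. Limma called 0 of 14218 genes (0%) for the difference, with 968 at an unadjusted p under 0.05, and 0 in each other fit of it. Of the 10 genes, 6 had the same direction with sunitinib. The sorafenib change minus the sunitinib change was -0.15 ± 0.08 for Hlx, -0.10 ± 0.14 for Bcl6b, -0.14 ± 0.10 for Rgs16 and 0.04 ± 0.07 for Spry4. For Klrd1, which was at -0.14 ± 0.10 with sunitinib, it was 0.65 ± 0.14. Of the 10 genes, 6 had an unadjusted p under 0.05 in limma for this difference, beside 968 of all 14218 genes, and 0 passed. These 10 genes were chosen by their sorafenib change, so the differences and this count are a description.

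Against the livers of the same 15 rats, limma called 0 of 14218 genes (0%) for a difference of the sorafenib change, with 753 at an unadjusted p under 0.05. With the tissues fitted as independent arrays 1 gene was called, Hlx (adjusted p = 0.00862). In the liver Hlx was at 7.90, 8.04 and 8.16 in sorafenib rats and 7.79, 7.94 and 8.11 in F68/PG/PEG400 rats, which overlapped throughout. The heart change minus the liver change of Hlx was -0.54 ± 0.09, given as a description. In bone marrow at 1 h its change was 0.03 ± 0.07, and limma called none of the 10 genes in liver or marrow, where 2 and 3 of them had an unadjusted p under 0.05, as did 2.62% and 7.38% of all genes.

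In all, 33 gene lists, of pathways (signalling, stress, metabolism and the clock) and of cell type markers, hepatocytes included, were read at the unadjusted p under 0.05, beside the 4.07% higher and 3.97% lower among all genes. Since no gene passed the adjusted test, no member of any list did. The lists were chosen with earlier results of these data known, so the order among them is only a description. The median change over all genes was 0.01. In a bulk sample, fewer cells of a type and less RNA per cell cannot be told apart.

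**Figure D4:**
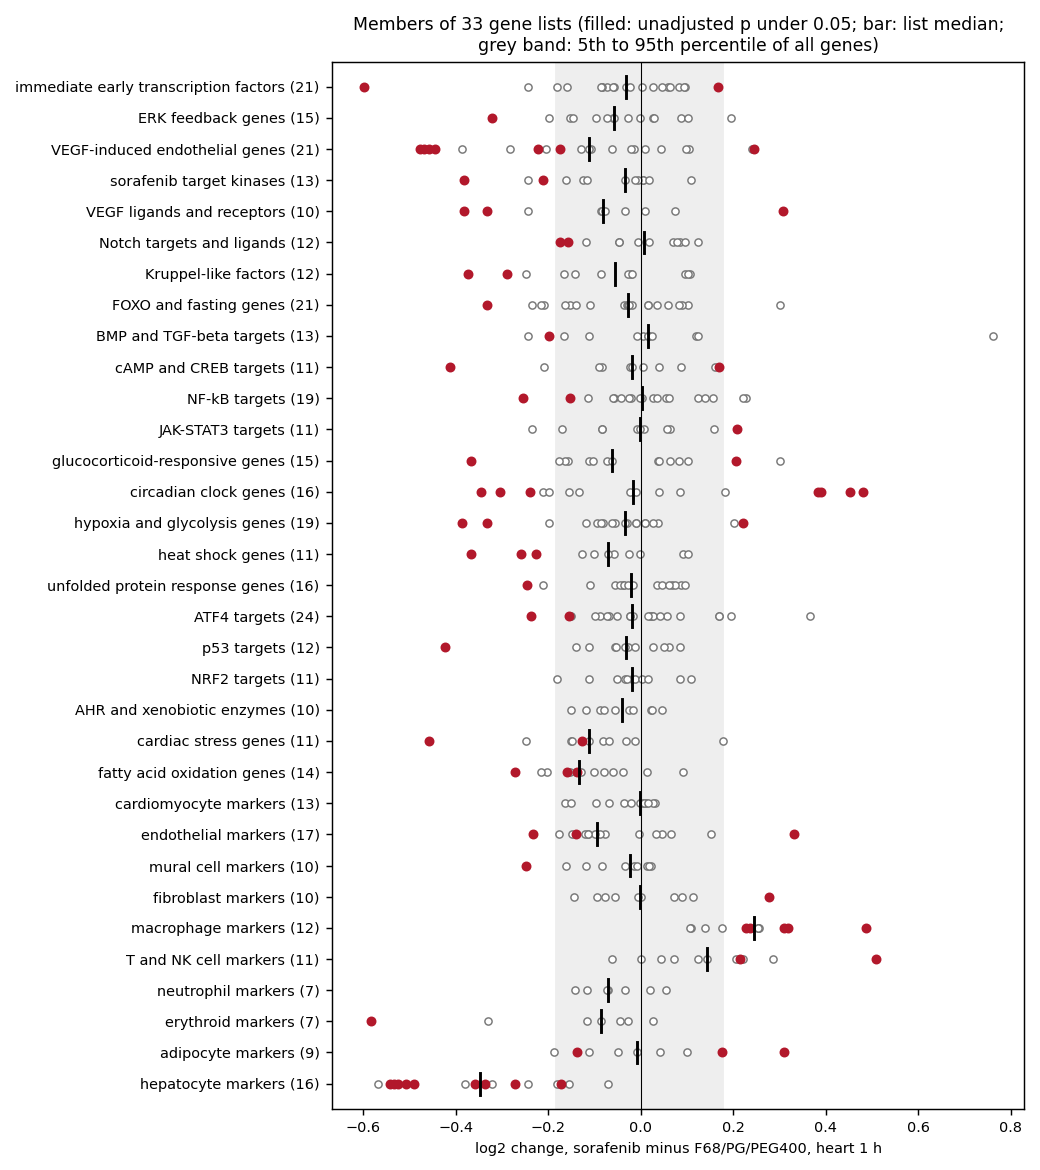
Each point is a gene, placed by its log2 change in sorafenib against F68/PG/PEG400 hearts at 1 h, in 33 lists with the number of genes measured in brackets. Filled points have an unadjusted p under 0.05, bars are list medians and the grey band holds the middle of all genes, from -0.18 (5th percentile) to 0.18 (95th). The macrophage list lies wholly right of 0 and the hepatocyte list wholly left of it.

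Among 13 target kinases of sorafenib, 0 were higher and 2 lower. Flt1, the VEGF receptor that also acts as a decoy, had values of 6.46, 6.99 and 7.44 in sorafenib hearts and 7.22, 7.33 and 7.71 in F68/PG/PEG400 hearts (log2 change -0.38 ± 0.12, unadjusted p = 0.00547). Mapk14, the p38 alpha kinase, was at -0.21 ± 0.09 (unadjusted p = 0.0298), with -0.39 after TEM_vehicle and 0.01 after temsirolimus. Kdr, the main signalling VEGF receptor of endothelium, was at -0.24 ± 0.14 and fell by 0.80 at 6 h and by 0.60 at 24 h (limma adjusted p = 0.00589 and 1.2e-06).

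Of 10 VEGF ligands and receptors, Flt1 and Vegfa were lower and Vegfc was higher. Vegfa, the main endothelial growth factor, had values of 10.6, 11.8 and 11.9 in sorafenib hearts and 11.7, 11.9 and 12.3 in F68/PG/PEG400 hearts (change -0.33 ± 0.15, unadjusted p = 0.0435). The lowest of these was rat 8M92, while the next sorafenib heart was at 11.5. Vegfc, a ligand of the lymphatic VEGF receptor, had 8.32, 8.60 and 8.66 in sorafenib hearts and 7.91, 8.30 and 8.59 in F68/PG/PEG400 hearts (change 0.31 ± 0.09, unadjusted p = 0.00349).

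The list with the most members that were lower, outside hepatocyte markers, was that of 21 genes induced by VEGF in endothelial cells. Lower at the unadjusted threshold were 6 of them, Hlx, Bcl6b, Rcan1, Hbegf, Dll4 and Mycn, and higher was 1, Lmo2. The median change was -0.11, and 15 of 21 were negative. Dll4, a Notch ligand of arterial and tip cells, did not overlap between the groups, with 8.20, 8.48 and 8.54 in sorafenib hearts and 8.56, 8.60 and 8.67 in F68/PG/PEG400 hearts (log2 change -0.18 ± 0.06, unadjusted p = 0.0116). Mycn, a transcription factor of the Myc family, had 6.91, 7.26 and 7.65 in sorafenib hearts and 7.02, 7.81 and 8.37 in F68/PG/PEG400 hearts (-0.47 ± 0.17, unadjusted p = 0.0149) and fell by 1.07 at 6 h (limma adjusted p = 4.4e-05).

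Rcan1, Hbegf and Lmo2 had the opposite sign at a later time. Rcan1, an inhibitor of calcineurin, had 11.3, 11.9 and 12.3 in sorafenib hearts and 11.7, 12.3 and 12.7 in F68/PG/PEG400 hearts (log2 change -0.46 ± 0.15, unadjusted p = 0.00726), and it rose by 0.84 at 24 h (limma adjusted p = 0.00264). Hbegf, a ligand of the EGF receptor, was at -0.22 ± 0.07 at 1 h (unadjusted p = 0.00919) and rose by 0.37 at 24 h (adjusted p = 0.00154). Lmo2, an adaptor of endothelial and blood transcription complexes, was at 0.25 ± 0.09 at 1 h (unadjusted p = 0.0164) and fell by 0.51 at 6 h (adjusted p = 0.0142). At 6 h 7 of the 21 genes fell and 1 rose, and at 24 h 9 fell and 2 rose. Without rat 8M92 the 1 h list had 6 lower and 2 higher members.

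Of 15 genes by which ERK signalling feeds back on itself, only Spry4 was lower at the unadjusted threshold, and none was higher. Dusp6, the ERK phosphatase, was at 0.09 ± 0.36, with 0.58 after TEM_vehicle and -0.51 after temsirolimus. It fell by 1.39 at 6 h (limma adjusted p = 0.0296). The median change of the list was -0.06.

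Egr1, an immediate early transcription factor, was the lowest of 21 such genes. Its values were 7.13, 7.30 and 7.93 in sorafenib hearts and 7.36, 8.00 and 8.95 in F68/PG/PEG400 hearts, which overlapped widely. The log2 change was -0.60 ± 0.15 (unadjusted p = 0.00124; limma adjusted p = 0.474), with -0.76 after TEM_vehicle and -0.40 after temsirolimus. It fell by 1.499 at 6 h and by 0.79 at 24 h (adjusted p = 3.18e-05 and 0.000325), and with sunitinib at 1 h it was at -0.43 (unadjusted p = 0.0245). Jund was the only member that was higher (0.17 ± 0.07, unadjusted p = 0.0384), while Fos was at 0.05 ± 0.09 and Jun at -0.24 ± 0.14. Without rat 8M92 the list had 4 lower members and 1 higher.

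Of 12 Krüppel-like factors, 2 were lower and 0 higher. Klf4, a transcription factor of vessel walls, had values of 9.32, 9.49 and 9.56 in sorafenib hearts and 9.52, 9.81 and 10.0 in F68/PG/PEG400 hearts, which overlapped narrowly (log2 change -0.29 ± 0.07, unadjusted p = 0.000666). Klf4 fell by 0.62 at 6 h and by 0.26 at 24 h (limma adjusted p = 0.000766 and 0.0252). Klf6, which responds to injury, was at -0.37 ± 0.13 (unadjusted p = 0.00929), and its lowest sorafenib value of 8.37 was that of rat 8M92. Klf2, induced by flow in endothelium, was at -0.25 ± 0.12 (unadjusted p = 0.0619). Without rat 8M92 the list had 3 lower members.

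Clock genes held the largest share of members past the unadjusted threshold among the pathway lists, 7 of 16. Higher were Dbp, Nr1d1, Per3 and Nr1d2, and lower were Bmal1, Cry1 and Nfil3, each with the same sign after TEM_vehicle and after temsirolimus. These 7 were picked on the same rats together, so the shared sign is only a description. Bmal1 drives the clock, Cry1 represses it, Nr1d1 and Nr1d2 repress Bmal1, Dbp activates D-box genes and Nfil3 represses them.

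Dbp had values of 7.55, 8.09 and 8.43 in sorafenib hearts and 7.28, 7.60 and 7.86 in F68/PG/PEG400 hearts (log2 change 0.45 ± 0.12, unadjusted p = 0.00147). Nr1d1 had 8.21, 8.36 and 8.77 in sorafenib hearts and 7.71, 8.07 and 8.31 in F68/PG/PEG400 hearts (0.39 ± 0.10, unadjusted p = 0.00166). Bmal1 had 8.25, 8.47 and 8.68 in sorafenib hearts and 8.55, 8.79 and 9.22 in F68/PG/PEG400 hearts (-0.35 ± 0.09, unadjusted p = 0.00208). The groups overlapped for all 3. Per3 was at 0.48 ± 0.15, Nr1d2 at 0.38 ± 0.16, Cry1 at -0.24 ± 0.07 and Nfil3 at -0.30 ± 0.11 (limma adjusted p of 0.51 to 0.604 for the 7 genes).

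In the sunitinib hearts, which share no array with the sorafenib comparison, all 7 of these clock genes had the same sign, as did 722 of the 1143 genes past the unadjusted threshold with sorafenib. The study's methods give no clock time of dosing or killing for each group. The part of the hour of day in the clock gene changes was not tested. With sunitinib 4 of the 16 members of the list were higher and 4 lower at that threshold, against 2.19% and 3.4% of all genes. The sunitinib changes at 1 h were 0.43 for Dbp, 0.38 for Nr1d1, 0.52 for Per3, 0.46 for Nr1d2, -0.28 for Cry1, -0.20 for Nfil3 and -0.19 for Bmal1. At 6 h of sorafenib Dbp rose by 0.72 (limma adjusted p = 0.00291), whereas Nr1d1 was at -0.17 (adjusted p = 0.392). At 24 h Bmal1 rose by 0.37 (adjusted p = 0.00449). Without rat 8M92 the 1 h list had 5 higher and 3 lower members.

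**Figure D5:**
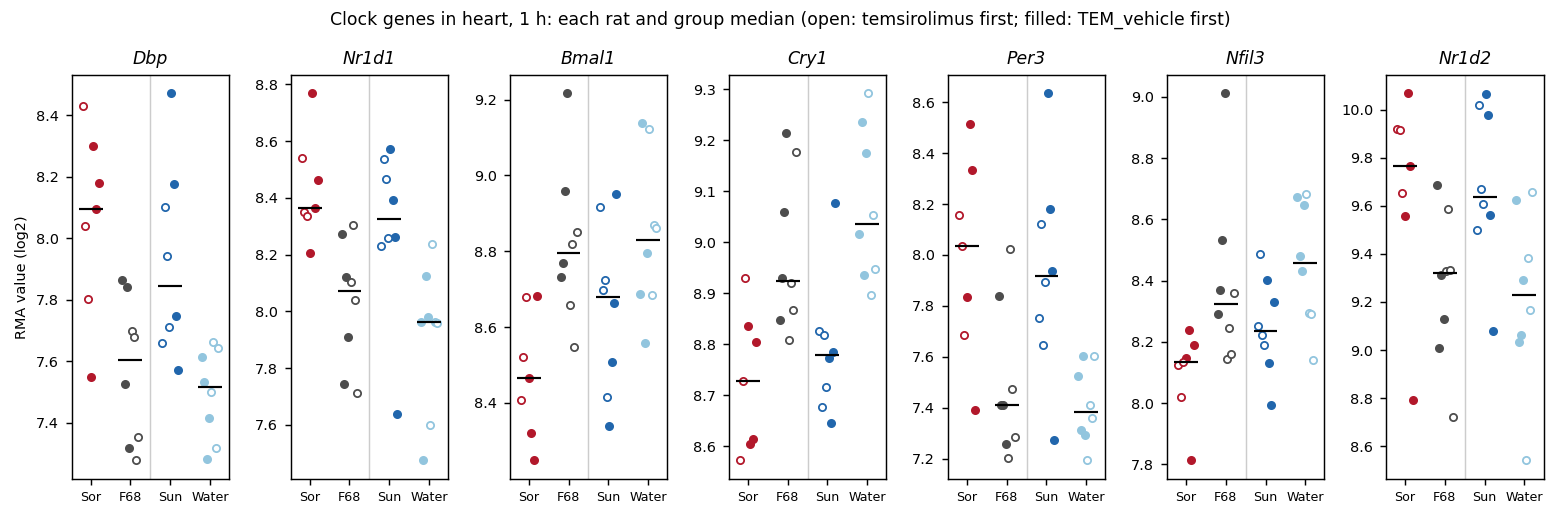
Log2 RMA values of 7 clock genes in each heart at 1 h for sorafenib (Sor), F68/PG/PEG400 (F68), sunitinib (Sun) and sterile water (Water), with lines at the medians; open points had temsirolimus first and filled ones TEM_vehicle. Dbp, Nr1d1, Per3 and Nr1d2 have higher medians, and Bmal1, Cry1 and Nfil3 lower ones, with either drug than with its own vehicle.

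Genes of heart muscle metabolism and stress were lower in small numbers. Fatty acid oxidation genes had 3 of 14 lower, led by Cpt1b, the mitochondrial carnitine acyltransferase of muscle (log2 change -0.27 ± 0.10, unadjusted p = 0.0136), with -0.43 after TEM_vehicle and -0.08 after temsirolimus. Targets of NRF2 (11) and AHR with xenobiotic enzymes (10) had 0 members past the threshold. Heat shock genes had 3 of 11 lower, cardiac stress genes 2 of 11 (Rcan1 and Hspb7), and FOXO and fasting genes 1 of 21, Fbxo32. Fbxo32, a muscle ubiquitin ligase, was at -0.33 ± 0.13 at 1 h (unadjusted p = 0.0183) and rose by 0.56 at 6 h (limma adjusted p = 0.0288), when 8 of the 21 genes rose. The natriuretic peptide genes Nppa (-0.15 ± 0.23) and Nppb (-0.15 ± 0.08) did not pass, and 0 of 13 cardiomyocyte markers had an unadjusted p under 0.05. Without rat 8M92 the lower members were 4 of the fatty acid oxidation genes, whose median was then -0.06 against -0.13 with it, 2 of the heat shock genes and 2 of the FOXO and fasting genes. Cardiac stress genes still had 2 lower members, and 4 of 11 were positive without that rat, against 1 of 11 with it. The list of AHR and xenobiotic enzymes then had 1 lower member.

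Macrophage markers were the list with the highest median, 0.24. All 12 were positive and 5 of 12 were higher at the unadjusted threshold, Adgre1, Cd163, F13a1, C1qa and Cd68. Their mean lay between 8.81 and 9.40 in sorafenib hearts and between 8.58 and 8.97 in F68/PG/PEG400 hearts, and the highest value was that of rat 8M92. Without that rat the median was 0.14 and 2 of 12 were higher, and with rat 6M68 kept, at 9.59, it was 0.33 and 6 of 12 were. The hepatocyte markers of the 6M68 array were at 14.16, so its macrophage level is not one of heart alone. Cd163, a scavenger receptor, had 7.73, 8.03 and 8.57 in sorafenib hearts and 6.82, 7.64 and 8.24 in F68/PG/PEG400 hearts (log2 change 0.49 ± 0.20, unadjusted p = 0.0252). With sunitinib the median of the list was -0.16, 0 of 12 were higher and 3 lower at the unadjusted threshold, and 0 of the 5 genes had the same sign. The mean level of the markers reached 9.06 in sunitinib hearts and 9.28 in sterile water hearts, and this water value lay above all but 1 of the sorafenib hearts. At 24 h the same list had 0 genes that rose and 11 that fell, with a median of -1.12.

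The 11 markers of T and NK cells include Klrd1, and 10 of them were positive. Their mean lay between 6.66 and 7.09 in sorafenib hearts and between 6.56 and 6.82 in F68/PG/PEG400 hearts, with a median change of 0.14, and 2 of 11 were higher, Klrd1 and Cd3g (1 of 11 without rat 8M92 and 1 of 11 with rat 6M68 kept). The T cell markers Cd3e (0.001 ± 0.07) and Cd8a (-0.06 ± 0.07) were near 0. The part of such cells in the change of Klrd1 was not tested. Endothelial markers had 1 of 17 higher and 2 lower, with means of 9.45 to 9.86 in sorafenib hearts and 9.49 to 9.84 in F68/PG/PEG400 hearts, ranges that nearly coincide. Without rat 8M92 that list had 1 higher and 1 lower member.

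Hepatocyte markers had 9 of 16 lower and 0 higher, with a median change of -0.35. Their mean was 6.02 to 6.67 in sorafenib hearts and 5.95 to 7.58 in F68/PG/PEG400 hearts, and 4 of the 8 F68/PG/PEG400 hearts lay above every sorafenib heart. Those 4 were the F68/PG/PEG400 hearts of the array set with the higher rat numbers. In sterile water hearts the mean was 6.83 to 8.62 in that set and 5.80 to 5.95 in the other. The sorafenib hearts of the set with the higher numbers were at 6.02, 6.30 and 6.67. Sunitinib hearts spanned 5.82 to 9.48, where the highest was rat 5M55, of the set with the higher numbers, and the next was at 6.28. The array of rat 5M55 was kept in the fits that used sunitinib hearts. The source of these transcripts was not tested. With rat 6M68 kept the median change was 0.56 and 0 of 16 were past the threshold. With the hepatocyte mean of each array as a covariate, 881 genes had an unadjusted p under 0.05 in limma, against 1143 without it.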

How the data were processed

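Gene expression was measured on Affymetrix rat genome arrays, 1 array per rat and tissue. The authors deposited log2 values, made by RMA (background correction, quantile normalisation and summary of probes); its version is not given in the sources used here. The table held 31099 probe sets on 288 arrays. Of these probe sets 20832 had 1 gene symbol, 436 several and 9831 were not listed and stayed unnamed. Each of 14218 genes was represented by its probe set with the highest mean over the 96 heart arrays. Arrays carry no read depth, and their number limits the precision.

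Log2 values were fitted with limma 3.58.1 in R 4.3.3 (empirical Bayes with a variance trend), with first agent and array set as blocks, and p-values were adjusted by Benjamini-Hochberg over all genes (threshold 0.05). The methods state that the rats of a group were dosed on more than 1 day but not which rats, so the array set is not called a day. Differences between times, drugs, tissues and first agents were fitted as interaction terms, with the rat as a block between tissues. The main comparison and the difference tests were first tested on simulated data. The rat is the replicate.

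Text names the 10 genes with the smallest p in the main comparison, the 4 with the smallest adjusted p in the difference between 1 and 6 h, and genes that passed the other difference tests. Of 33 gene lists (451 of 486 entries measured), the text names some members with an unadjusted p under 0.05 in limma, and others as stated. Such a p was held by 71 distinct list genes, and not every one of them, nor every list, is described. The members and lists were chosen with earlier results of these data known. Alternatives were keeping rat 6M68, no array set, an additive model, other sets of arrays, a filter on mean log2 value of 6, renewed quantile normalisation, the mean of probe sets, a hepatocyte covariate, no variance trend and leaving out each rat. List counts without rat 8M92 and with rat 6M68 were added after seeing the data. Promoter sequences came from RefSeq (GRCr8), and figures were drawn with matplotlib 3.10.9.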

Additional observations from a re-analysis of the deposited data

Results flagged for a closer look

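The sorafenib change of Fxyd3 differed between rats with and without temsirolimus by -1.43 (log2), which passed the interaction test. Within groups of 4 rats, the sample farthest from the others was set against the range of its group, gene by gene for the named genes. Chance alone meets this check in about 5% of such sets of 4 values. It was met in 3 of 45 sets, each of 1 gene in 1 group, and all 3 were in TEM_vehicle followed by F68/PG/PEG400. Rat 2M13 was low for Klrd1, at 6.11, and for Bcl6b, at 9.45. Rat 2M19 stood apart for Fmo1, at 9.45.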

How the results depend on the processing

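The count of genes called for sorafenib against F68/PG/PEG400 was 0, and it was 1 with rat 6M68 kept, without the array set, with a mean log2 value of at least 6, after renewed quantile normalisation and without the variance trend, in each case Hlx. It was 9 in the fit on 31 hearts at 1 h and 4 in the fit on hearts of all times (Hlx, Prdm1, Plk2 and Spry4). Leaving out each rat gave 0 to 1, with 1 (Hlx, limma adjusted p = 0.0326) only without rat 6M62, and 691 (without 2M20) to 2232 (without 6M67) genes at an unadjusted p under 0.05, against 1143 with all. The additive model, the mean of probe sets and the hepatocyte covariate gave 0, the last with 881 genes at an unadjusted p under 0.05. The 10 named genes kept their direction in 27 alternatives each, most of which refit the arrays that chose them. Sizes and adjusted p moved more. The highest adjusted p of a gene was 0.69 (Hlx) to 0.845 (Rgs16) in limma, and the change of Ppm1l ranged from -0.67 to -0.19. For the difference between 1 and 6 h the 557 genes became 237 with rat 6M68 kept, 311 without the array set, 683 with a mean log2 value of at least 6, 646 after renewed quantile normalisation, and 11 to 455 when a rat of each group was left out, rat 6M68 being the one already out in 1 of the 4 runs. For the difference with and without temsirolimus the count was 0 to 1 in the same exercise, and for heart against liver it was 1 with the tissues as independent arrays. The cause of these shifts was not tested. Heart and liver of the same rats were compared with the rat as a block. Between groups of different rats, replicate numbers follow accession order and pair no rats. No paired analysis was possible because of this for those comparisons.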
